A study of Mus musculus with 2 samples.

Results

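The 7 genes described here were Runx2, Sp7, Dlx5 and Msx2, which encode transcription factors of the bone-forming lineage, Alpl, which encodes tissue-nonspecific alkaline phosphatase, and Vdr and Pth1r, which encode the receptors for vitamin D and for parathyroid hormone. They were chosen by name, and each matched 1 of the 34144 genes in the deposited files (Runx2 ENSMUSG00000039153, Sp7 ENSMUSG00000060284, Dlx5 ENSMUSG00000029755, Msx2 ENSMUSG00000021469, Alpl ENSMUSG00000028766, Vdr ENSMUSG00000022479, Pth1r ENSMUSG00000032492). The data were single-cell transcriptomes of wild-type C57BL6 mice, with 1 library from adult and 1 from old animals, made to ask how the cells of the marrow niche differ with age. The cells were stromal cells of long bone marrow, left after depletion of haematopoietic cells and sorted as live by scatter and DAPI. The libraries were made with the 10x Chromium 3' kit, in which each transcript molecule carries a unique molecular identifier (UMI) and is counted once. The sources used here do not give the age in months, the sex or number of the mice, or any pooling of animals. With 1 library per age there is no spread between samples, so no test was possible, and every interval below is a 95% interval that covers counting error only.

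Bone is made by osteoblasts, which arise from mesenchymal progenitors of the marrow. Runx2 and then Sp7 commit these progenitors to bone, and the homeobox factors Dlx5 and Msx2 act on the same programme. Alkaline phosphatase breaks down pyrophosphate, an inhibitor of mineral deposition. The vitamin D receptor is a nuclear receptor that pairs with retinoid X receptors, and its classical target is Cyp24a1, the enzyme that degrades active vitamin D. The parathyroid hormone receptor signals mainly through cyclic AMP, and both hormones are known to raise the osteoclast-inducing ligand RANKL (Tnfsf11) in stromal and bone-forming cells.

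Alpl and Vdr were the 2 genes that lay at least 2-fold apart in the same direction in both reticular cell classes described below. Of all genes compared, 1.75% and 3.41% were that much lower in old cells. In the larger of these classes the Alpl level was near the background of free RNA and is not read as expression. The 250 bases before the start sites of both genes are shown. They are taken from RefSeq's promoter table of build GRCm38.p6, not the GRCm39 build of the counts, and run 5′ to 3′ on the gene's strand. Capitals mark each match to a searched motif on either strand.

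Vdr (chr15:97908297-97908546, minus strand): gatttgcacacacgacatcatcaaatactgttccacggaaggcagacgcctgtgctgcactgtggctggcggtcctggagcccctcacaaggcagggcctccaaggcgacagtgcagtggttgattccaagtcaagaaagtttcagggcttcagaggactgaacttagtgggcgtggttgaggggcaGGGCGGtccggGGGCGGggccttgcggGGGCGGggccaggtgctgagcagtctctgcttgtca

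Alpl, first start (chr4:137796385-137796634, minus strand): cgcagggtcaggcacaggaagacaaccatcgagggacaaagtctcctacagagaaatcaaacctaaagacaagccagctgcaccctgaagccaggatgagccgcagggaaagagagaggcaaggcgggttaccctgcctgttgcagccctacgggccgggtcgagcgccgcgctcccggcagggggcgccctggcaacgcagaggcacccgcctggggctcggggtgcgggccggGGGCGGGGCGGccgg

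Alpl, second start (chr4:137766476-137766725, minus strand): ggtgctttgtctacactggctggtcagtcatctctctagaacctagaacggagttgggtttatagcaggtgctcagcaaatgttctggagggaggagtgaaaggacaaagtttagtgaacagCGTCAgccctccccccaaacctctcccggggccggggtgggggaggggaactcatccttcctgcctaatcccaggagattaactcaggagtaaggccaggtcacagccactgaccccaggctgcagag

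The Vdr window held 3 GC boxes (GGGCGG), at 63, 52 and 36 bases before the start. The first Alpl window held 2 overlapping GC boxes, at 15 and 10 bases before the start. The second Alpl window held 1 match to the short cyclic AMP response core TGACG, on the opposite strand, at 128 bases before the start. A GC box was present in 32.7% of the 32851 RefSeq windows of this length, and TGACG in 17.8%. The full cyclic AMP element TGACGTCA, which contains that core, was in 1.55% of windows, the RUNX core TGTGGT in 14% and the homeodomain core TAATTA in 4.84%. None of these last 3 motifs matched in the 3 windows shown. Counting at the 3' end does not tell which Alpl start a transcript came from. Windows were also in the table for Runx2, Msx2 and Pth1r. Sp7 and Dlx5 are named only.

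After filtering, 22403 adult and 18975 old cells were clustered together, and clusters were named from marker genes that include none of the 7. CAR-like cells, named after the CXCL12-abundant reticular cells that support blood stem cells, numbered 13028 adult (58.2% of the library, 57.5% to 58.8%) and 10927 old cells (57.6%, 56.9% to 58.3%). All 10 CAR markers were found in over 10% of these cells in each library, with summed levels of 25780 and 25400 UMIs per 1000000 UMIs of the class (CPM). Osteo-primed CAR-like cells, led by Wif1, Hs3st5 and Kcnk2, numbered 2055 and 1628. Osteoblast-like cells, led by Col1a1 and the osteocalcin genes Bglap and Bglap2, numbered 2879 adult but only 77 old cells. Osteopontin osteolineage-like cells, led by Col25a1, Postn, Mmp9 and Spp1, numbered 209 adult and 708 old cells. The osteoclast markers, Mmp9 among them, summed to 2157 CPM in these adult cells but to 60.7 CPM in the old ones. The pooled osteolineage-like class of 3088 adult and 785 old cells was therefore 93.2% osteoblast-like in the adult library (92.3% to 94.1%) and 90.2% osteopontin osteolineage-like in the old one (87.9% to 92.2%).

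The 2 libraries separated strongly, which bears on every comparison within the reticular classes. Of adult CAR-like cells, 97.5% lay in clusters that were over 95% adult, and 98.3% of old CAR-like cells lay in clusters that were over 90% old. Osteo-primed CAR-like cells likewise came from 1 cluster led by Hs3st5 and Wif1 (2047 adult and 21 old cells) and 1 led by Kcnk2 and Col8a1 (8 adult and 1607 old cells). The second of these scored slightly higher for CAR markers (0.859) than for osteo-primed markers (0.777), and took its name from Kcnk2 and Limch1 among its leading genes. Age and library cannot be told apart here. A further 1731 old cells of low depth, led by Grm7 and Tenm2, took no name. The filtered libraries shared 108 cell barcodes, of which 2 fell in the same cluster.

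RNA free in the cell suspension can be counted in any droplet, and its level for these genes was read in megakaryocyte-like cells (661 adult and 432 old), which are not known as a source of bone-forming transcripts. A megakaryocyte-like cell held 0.885 (adult) and 0.227 (old) Alpl UMIs, against 0.976 and 0.251 per CAR-like cell. The background thus came to 90.7% and 90.5% of the Alpl count of CAR-like cells. Old erythroid-like cells held the same 0.251 UMIs per cell as old CAR-like cells. In the adult library, 157 erythroid-like cells held 92 Alpl UMIs, fewer per cell than megakaryocyte-like or CAR-like cells. The adult background therefore depends on the class in which it is read. For Sp7 the background was 71.6% and 57.3% of the CAR-like count, for Pth1r 58.2% and 44.2%, for Dlx5 55.7% and 29.7%, for Vdr 40.0% and 41.3%, and for Runx2 39.1% and 35.9%. In osteo-primed CAR-like cells it was 5.95% and 5.51% for Alpl, but 35.7% and 21.5% for Vdr. By the megakaryocyte-like reference, Alpl in CAR-like cells as a whole is given below as a value near background, and Sp7 as mostly background. Neither is read there as expression. The megakaryocyte-like cluster also scored 0.789 for CAR markers, which summed there to 15330 (adult) and 12210 CPM (old). At finer clustering (Leiden resolution 2) the megakaryocyte-like class held 430 adult and 331 old cells. An unnamed cluster led by Ctla2a and Nrgn (232 and 102 cells) then scored 0.903 for CAR and 0.627 for megakaryocyte markers. RNA of attached stromal cells could thus be counted as background, which would overstate the shares given here, and this was not tested.

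Runx2, the first factor of osteoblast commitment, was widely detected in mesenchymal cells of both ages. At 2000 UMIs per cell, 88.4% of CAR-like cells had a Runx2 UMI in each library, against 65.7% (adult) and 52.1% (old) of megakaryocyte-like cells. Its level in CAR-like cells was 1674 (adult) and 1924 CPM (old), a log2 ratio of old over adult of 0.20 (0.19 to 0.21). In osteo-primed CAR-like cells it was 2580 and 2550 CPM (-0.02, -0.04 to 0.00), which is a difference of about the counting error. Osteoblast-like cells held 1077 and 1862 CPM (0.79, 0.74 to 0.84), and osteopontin osteolineage-like cells held the highest levels, 2881 and 3879 CPM (0.43, 0.40 to 0.46). None of these 4 classes lay 2-fold apart on its own. In the pooled osteolineage-like class Runx2 was at 1187 against 3553 CPM (1.58, 1.56 to 1.60), beside the exchange of osteoblast-like for osteopontin osteolineage-like cells described above. Runx2 spans 318811 bases and lay in the longest of 4 equal groups of genes, whose median log2 ratio was 0.15 in CAR-like and 0.61 in pooled osteolineage-like cells, against -0.20 and -0.25 in the shortest group. The part of gene length in the Runx2 values was not tested.

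Sp7, or osterix, which acts after Runx2, was above its CAR-like level in the osteo-primed and bone-forming classes. Adult chondrocyte-like cells also held 90.2 CPM. Osteoblast-like cells held 159.8 (adult) and 206.7 CPM (old) (log2 ratio 0.37, 0.21 to 0.53). Osteopontin osteolineage-like cells held 91.7 and 130.0 CPM (0.50, 0.31 to 0.70). Osteo-primed CAR-like cells held 129.4 and 79.3 CPM (-0.71, -0.80 to -0.61), the opposite direction to that in the 2 osteolineage classes. That direction held in 11 of 13 alternatives and turned at coarser and finer clustering (Leiden resolutions 0.5 and 2), to 0.43 and 0.47, where 26 and 21 old cells were left in the class. CAR-like cells held 21.9 and 19.7 CPM. After each cell was thinned to 2000 UMIs, 4.05% (adult) and 3.80% (old) of CAR-like cells had an Sp7 UMI, against 4.86% and 2.79% of megakaryocyte-like cells. Thinning removes more free RNA from the deeper CAR-like cells, so the megakaryocyte-like share can overstate their background.

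Dlx5, a homeobox factor upstream of Runx2 and Sp7, was lower in the old library in each of the 4 classes. The levels were 55.1 and 30.5 CPM in CAR-like cells (log2 ratio -0.85, -0.92 to -0.79), 155.2 and 77.9 CPM in osteo-primed CAR-like cells (-0.995, -1.09 to -0.90), and 122.3 and 93.5 CPM in osteopontin osteolineage-like cells (-0.39, -0.57 to -0.20). In osteoblast-like cells, 67.0 and 59.3 CPM gave -0.18 with an interval that spans 0 (-0.48 to 0.11). The osteo-primed ratio of 1.99-fold lay just inside the 2-fold line used below. The direction was not the same in the pooled osteolineage-like class, at 70.4 and 88.0 CPM (0.32, 0.22 to 0.43), where the mix of the 2 classes also differed. Subtracting the background brought the CAR-like ratio to -0.30. Here and below, this took the mean count of a megakaryocyte-like cell from each cell, for the gene and for all genes together. It treats all RNA of those cells as free, their own included, so it can remove too much.

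Msx2, a homeobox factor that can act with or against Dlx5, was almost absent. CAR-like cells held 15 adult and 7 old UMIs, osteo-primed CAR-like cells 17 and 3, and osteoblast-like cells 44 and 0. Osteopontin osteolineage-like cells held 0 UMIs in both libraries, which allows up to 1.05 (adult) and 0.340 CPM (old) (3 UMIs of the class total). In old osteoblast-like cells the same limit was 1.76 CPM, above the 0.997 CPM of adult osteoblast-like cells, so a difference was not detectable at this depth.

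**Figure D1:**
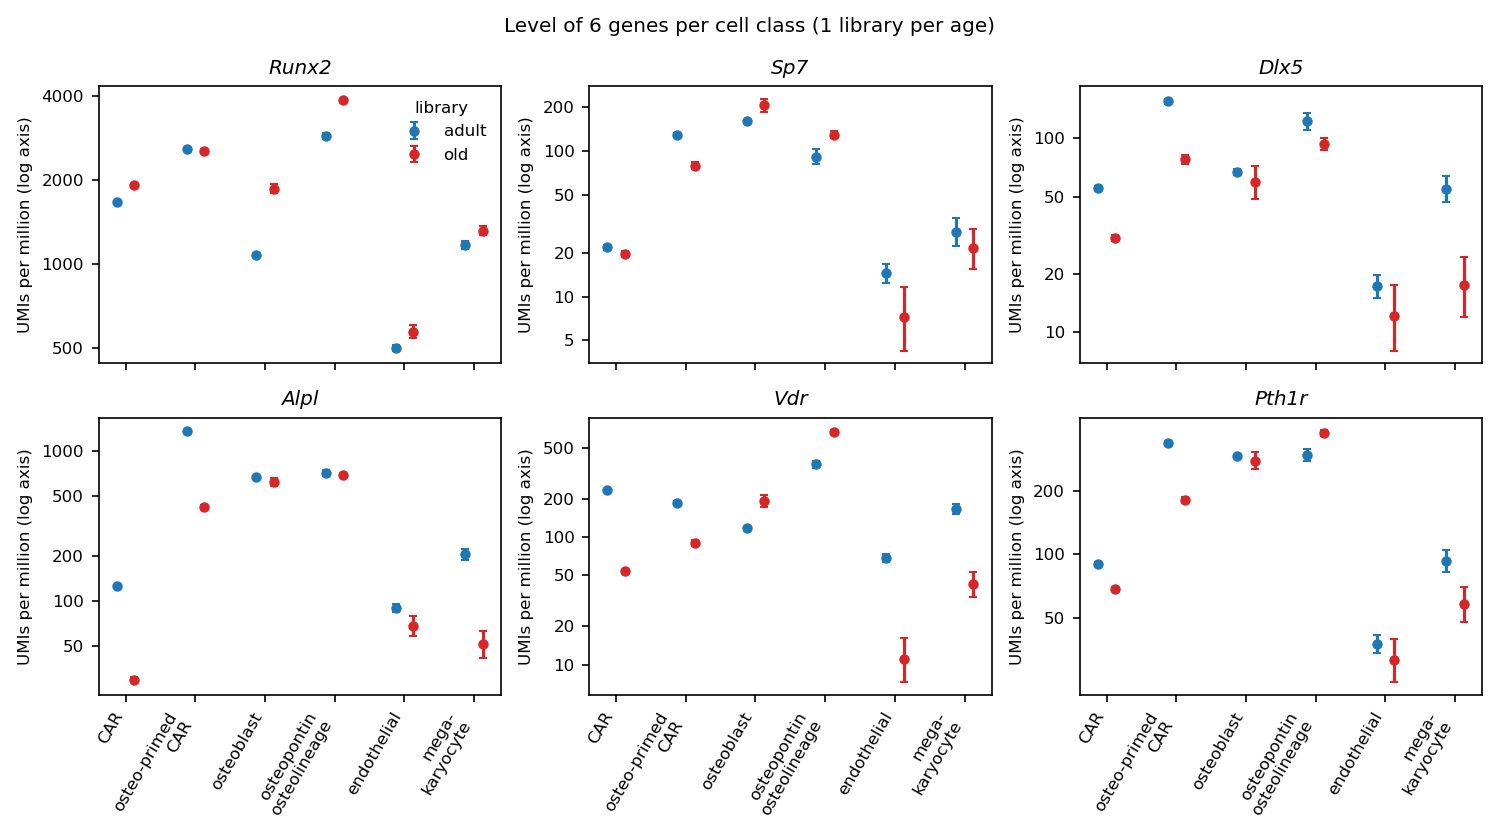
Level of 6 genes, in CPM on log axes, in the 4 mesenchymal and bone-forming classes and in endothelial-like and megakaryocyte-like cells of the adult (blue) and old (red) library. Points are summed levels of 1 library and bars are 95% Poisson intervals. Vdr was at 371.9 and 669.7 CPM in osteopontin osteolineage-like cells, above every other class shown, while in the CAR-like, osteo-primed, endothelial-like and megakaryocyte-like classes the red Vdr point lies below the blue one.

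Alpl was highest in osteo-primed CAR-like cells of the adult library. It was at 1362 CPM (1346 to 1377) in adult and 425.3 CPM (415.1 to 435.6) in old osteo-primed CAR-like cells, a log2 ratio of -1.68 (-1.72 to -1.64), or 3.20-fold lower. At 2000 UMIs per cell, 84.6% of adult and 48.5% of old osteo-primed cells had an Alpl UMI, against 17.6% and 5.12% of megakaryocyte-like cells. Without thinning the shares were 97.0% and 79.1%, at median depths of 9731 and 8885.5 UMIs, against 20.6% and 6.94% of megakaryocyte-like cells at 1992 and 1991 UMIs. The osteoblast-like class was nearly level, at 666.8 and 624.3 CPM (-0.10, -0.19 to -0.01), as was the osteopontin osteolineage-like class, at 716.9 and 687.6 CPM (-0.06, -0.13 to 0.01). Old osteo-primed cells thus had the lowest Alpl level of these 6 class-by-library groups. Marker sums of the osteo-primed class moved with it: CAR markers were at 10570 CPM (adult) and 18060 CPM (old), osteo-primed markers at 6685 and 4988 CPM, and osteoblast markers at 10860 and 4192 CPM. Their part in the Alpl difference was not tested. When each library was clustered on its own, the osteo-primed ratio was -1.18. At Leiden resolutions 0.5 and 2, which left only 26 and 21 old osteo-primed cells, it was -0.25 and -0.17.

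Alpl in CAR-like cells was at 126.2 (adult) and 29.8 CPM (old) (log2 ratio -2.08, -2.14 to -2.02). Megakaryocyte-like cells held 204.3 and 51.5 CPM, but they are shallower, so the same free RNA gives a higher CPM there. Per cell, CAR-like cells held slightly more Alpl UMIs than megakaryocyte-like cells (0.976 against 0.885 adult, 0.251 against 0.227 old). The largest adult clusters differed. The one led by Bmp4 and Lpl held 8304 UMIs in 5730 cells, more per cell than megakaryocyte-like cells. Those led by Kcne4 and Clstn2 (3311 in 4631) and by Fam227b and Egfros (541 in 2341) held fewer. With thinning, 16.4% (adult) and 4.69% (old) of CAR-like cells had an Alpl UMI, no more than the 17.6% and 5.12% of megakaryocyte-like cells. Those megakaryocyte-like shares can overstate the background of the deeper CAR-like cells.

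Vdr was lower in old than in adult reticular cells and higher in old than in adult bone-forming cells. CAR-like cells held 233.6 CPM (230.6 to 236.6) in adult and 53.9 CPM (52.5 to 55.5) in old mice, a log2 ratio of -2.11 (-2.16 to -2.07), or 4.33-fold lower. Osteo-primed CAR-like cells held 185.0 CPM (179.4 to 190.7) and 89.9 CPM (85.3 to 94.7), a log2 ratio of -1.04 (-1.13 to -0.95). In the opposite direction, osteoblast-like cells held 116.9 CPM (113.8 to 120.2) and 192.1 CPM (171.8 to 214.0), a log2 ratio of 0.72 (0.55 to 0.88), and osteopontin osteolineage-like cells held 371.9 CPM (349.9 to 394.9) and 669.7 CPM (652.7 to 687.0), a log2 ratio of 0.85 (0.75 to 0.94). Neither osteolineage class reached 2-fold on its own. Osteoclast markers summed to 2157 CPM in adult and 60.7 CPM in old osteopontin osteolineage-like cells. Of the 6, 1 was in over 10% of cells in each library, and 3 and 2 were at 0. Their part in the Vdr values was not tested.

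Ordered by level, old osteopontin osteolineage-like cells came first, then adult ones, then adult CAR-like cells. Old osteoblast-like and adult osteo-primed CAR-like cells followed, with intervals that overlap, and then adult osteoblast-like, old osteo-primed and old CAR-like cells. The reticular classes thus led the osteoblast-like class in the adult library and fell behind it in the old one.

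The pooled osteolineage-like class gave 132.5 (adult) and 592.5 CPM (old), a log2 ratio of 2.16 (2.11 to 2.21), or 4.47-fold higher. That pooled ratio joined mostly osteoblast-like adult cells with mostly osteopontin osteolineage-like old cells. The mean of the 2 ratios within the classes was 0.78, an alternative added after the data were examined. The opposite direction of Vdr held in each osteolineage class, but its 4.47-fold size did not.

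**Figure D2:**
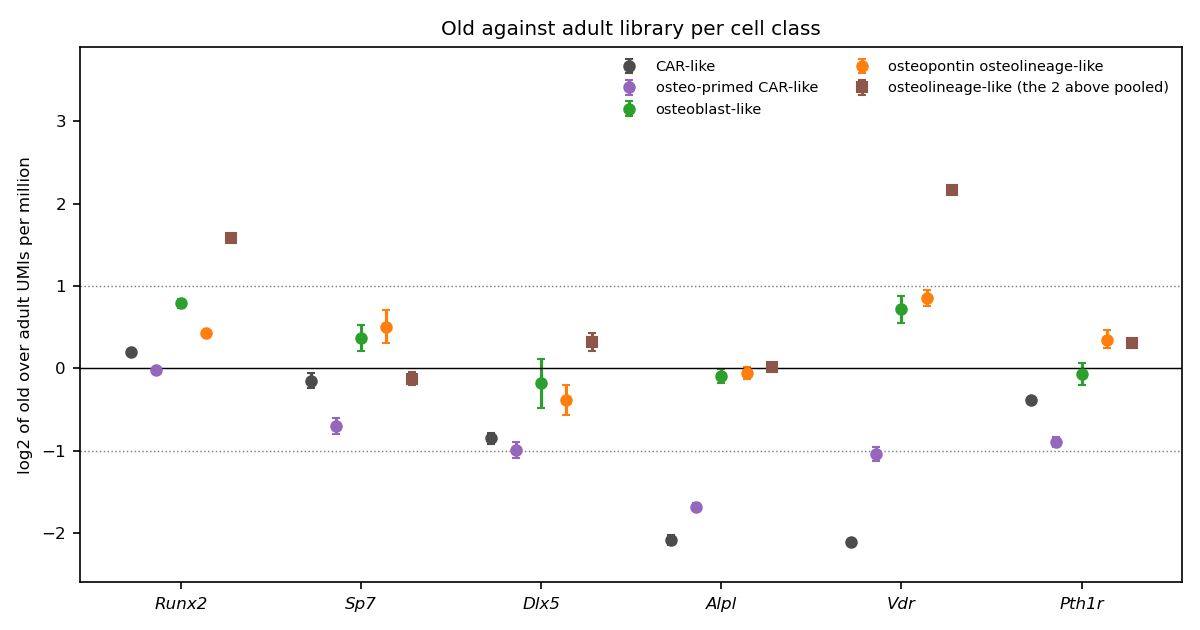
Log2 of old over adult level for 6 genes in the 4 classes (circles) and in the pooled osteolineage-like class (squares), with 95% intervals for counting error and dotted lines at 2-fold. Vdr ran from -2.11 in CAR-like to 0.72 and 0.85 in the 2 osteolineage classes, and its pooled value of 2.16 lies above both of these, as does that of Runx2 (1.58).

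Shares of cells with a Vdr UMI differed in the same directions at equal depth. After thinning to 2000 UMIs, 27.3% of adult (26.5% to 28.1%) and 8.76% of old CAR-like cells (8.22% to 9.32%) had a Vdr UMI, against 18.5% and 5.12% of megakaryocyte-like cells. Cells under that depth, 693 of the adult CAR-like cells among them, were left out. Without thinning the CAR-like shares were 48.1% and 23.9%, at median depths of 7023.5 and 7657 UMIs, and those of megakaryocyte-like cells 20.6% and 8.57%. The osteopontin osteolineage-like shares at equal depth were 51.7% (44.6% to 58.8%) and 64.4% (60.8% to 68.0%), and the osteoblast-like shares 20.8% (19.3% to 22.3%) and 36.0% (25.2% to 47.9%). In none of these 3 classes did the intervals of the 2 libraries overlap, but they cover counting error only and not the spread between animals. Adult osteoblast-like cells, at 20.8%, were close to the 18.5% of adult megakaryocyte-like cells, a share that can overstate the background of deeper cells. Per cell and without thinning, the background came to 40.25% of the Vdr count of adult osteoblast-like cells.

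Vdr was also lower in the old library in cells outside the reticular and bone lineage classes. Endothelial-like cells held 68.8 (adult) and 11.2 CPM (old), erythroid-like cells 60.4 and 12.9 CPM, megakaryocyte-like cells 166.6 and 42.6 CPM, and pericyte or smooth muscle-like cells 69.7 and 32.1 CPM. The log2 ratio in megakaryocyte-like cells, -1.97 (-2.33 to -1.63), overlapped that of CAR-like cells. When the background per cell was subtracted, the CAR-like ratio was -2.26 and the pooled osteolineage-like ratio 2.86, while the osteo-primed ratio shrank to -0.61. The direction in CAR-like cells was the same in all 16 alternatives, from -2.58 to -1.59. In osteo-primed cells it was the same in 11 of 13, and 5 of 13 were at least 2-fold.

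**Figure D3:**
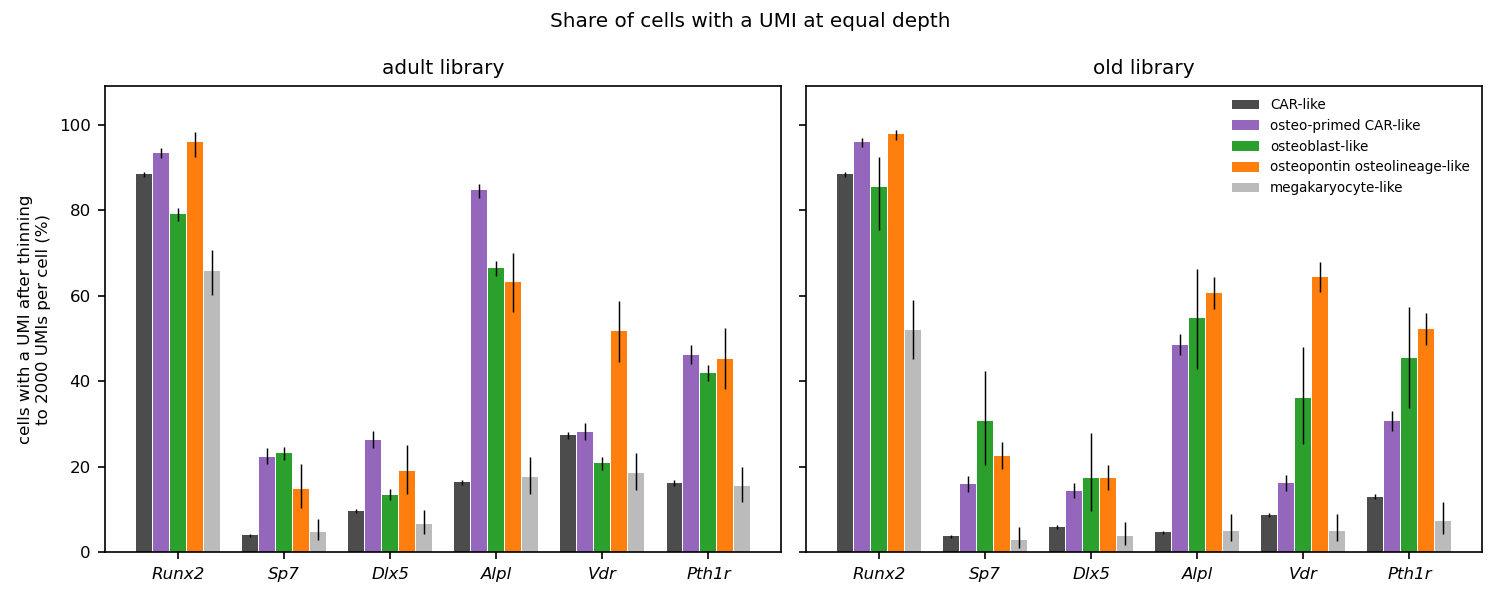
Share of cells with at least 1 UMI of each gene after every cell was thinned to 2000 UMIs, in the adult (left) and old (right) library, with 95% exact binomial intervals. Grey bars are megakaryocyte-like cells, the background reference. Thinning removes less of their free RNA than of that of deeper cells, so these bars can overstate the background. The CAR-like bars of Sp7 (4.05% and 3.80%) and Alpl (16.4% and 4.69%) are about as high as the grey ones, and the Vdr bars of osteopontin osteolineage-like cells (51.7% and 64.4%) are far above them.

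Within the CAR-like class, Vdr levels differed between clusters, and most old clusters lay below the adult ones. The adult cluster led by Bmp4 and Lpl held 168.9 CPM, the one led by Kcne4 and Clstn2 held 291.3 CPM, and one led by Fam227b and Egfros held 342.2 CPM. The last of these was of low depth (median 3027 UMIs) and rich in the nuclear RNA Malat1 (52650 CPM, against 31170 and 34430 CPM in the other two). The old clusters ranged from 29.5 CPM, in the one led by Lrrtm4 and Kit, through 37.6 CPM, in the largest, led by Tenm2 and Grm7, to 82.6 CPM in the one led by the acute-phase genes Saa3 and C3. Each of these old clusters was thus below each of these adult ones. The Lrrtm4 cluster, which also scored highest of all for adipocyte markers, held 78 adult cells too, and their 56.4 CPM (42.8 to 72.9) made them the exception, below some old clusters. The cluster led by the interferon-induced chemokines Cxcl10 and Cxcl9 was the CAR-like cluster most evenly shared, with 210 adult and 121 old cells. It held 277.0 (adult) and 122.7 CPM (old), a log2 ratio of -1.17 (-1.47 to -0.89). The osteoblast-like cluster that held old cells, of high depth, gave 108.1 and 192.1 CPM within itself (0.83, 0.66 to 0.99).

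**Figure D4:**
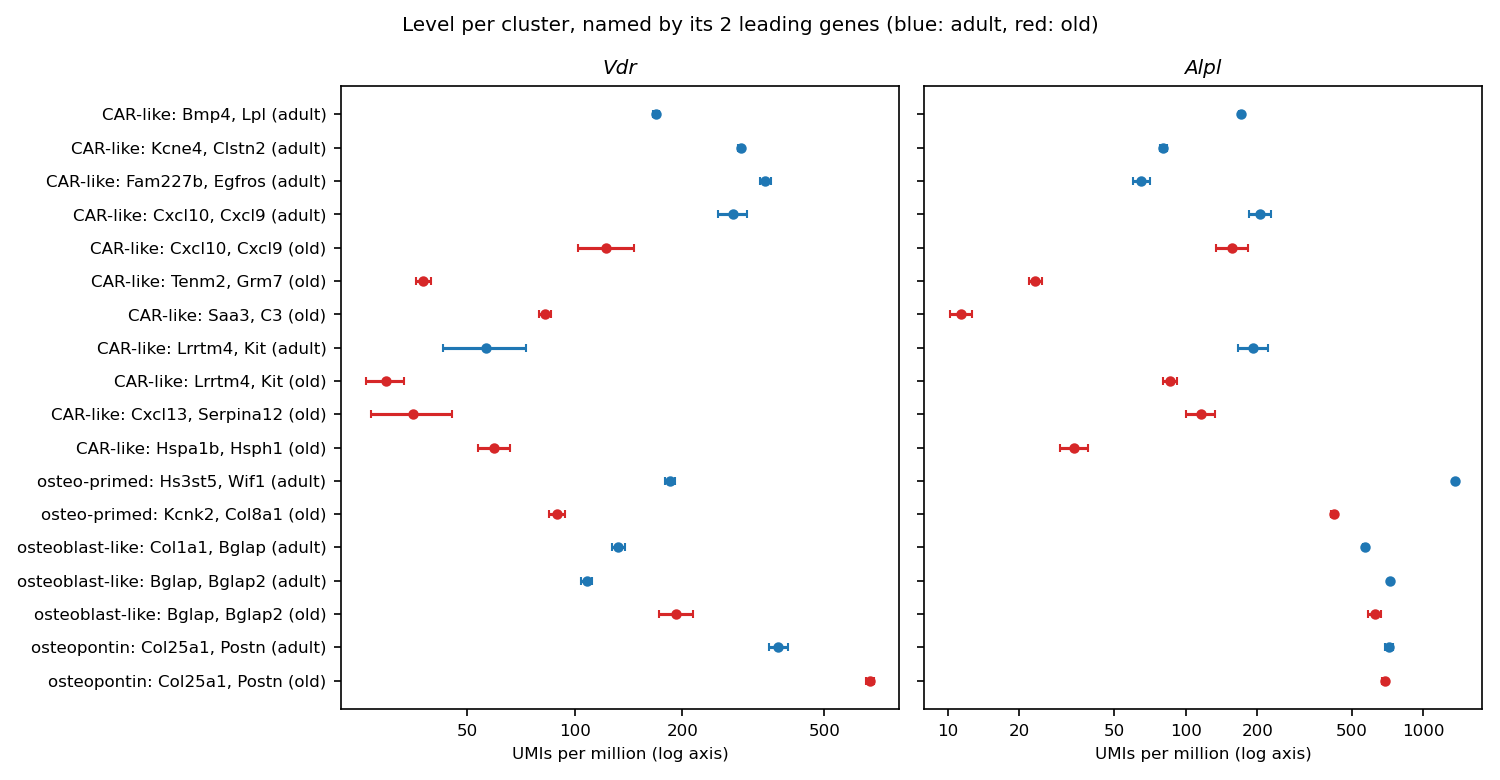
Vdr (left) and Alpl (right) levels, in CPM on log axes, in each cluster of the 4 classes with at least 77 cells of the library shown, adult in blue and old in red, with 95% Poisson intervals. A cluster is named by its 2 leading genes. Old CAR-like clusters lie at 29.5 to 122.7 CPM of Vdr and adult ones at 168.9 to 342.2 CPM, except for 56.4 CPM in the adult cells of the Lrrtm4 cluster, whereas old osteopontin osteolineage-like cells reach 669.7 CPM.

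Pth1r, the receptor for parathyroid hormone, had its highest level in adult chondrocyte-like cells, at 632.6 CPM in 256 cells, a class with no old cells. Osteo-primed CAR-like cells held 339.1 CPM (331.5 to 346.8) in adult and 182.2 CPM (175.6 to 189.0) in old mice, a log2 ratio of -0.90 (-0.96 to -0.83). Osteopontin osteolineage-like cells held 297.3 and 378.6 CPM (0.35, 0.24 to 0.46), and osteoblast-like cells 294.4 and 280.7 CPM (-0.07, -0.20 to 0.06). At equal depth, 46.2% of adult and 30.7% of old osteo-primed cells had a Pth1r UMI, against 15.5% and 7.44% of megakaryocyte-like cells. CAR-like cells held 89.7 and 68.4 CPM (-0.39, -0.44 to -0.34), and subtracting the background brought that ratio to -0.09. The osteo-primed direction held in 11 of 13 alternatives and turned at Leiden resolutions 0.5 and 2, to 0.42 and 0.54. Within the mostly adult osteo-primed cluster led by Hs3st5 and Wif1, its 21 old cells were higher, at 489.1 against 339.8 CPM (0.53, 0.15 to 0.88).

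Counted over the set, a gene entered a comparison if the library with more of it had 50 CPM and 50 UMIs or more, and was called apart at 2-fold. In CAR-like cells 5 of the 7 entered, and 2 (Alpl and Vdr) were lower with age by 2-fold or more. Of the 4169 genes compared, 4.37% were 2-fold apart, 2.61% higher and 1.75% lower with age. The Alpl level in these cells was near background, and with the background subtracted this count was 1. In osteo-primed CAR-like cells 6 entered, and the same 2 were at least 2-fold lower, where 8.25% of 4256 genes were apart, 4.84% higher and 3.41% lower. The median log2 ratio of the 6 was -0.95 there, against 0.03 over all genes. All 6 ratios were below 0, but that of Runx2 was within about the counting error and kept its sign in 5 of 13 alternatives, and those of Sp7, Vdr and Pth1r each turned in 2 of 13. In osteoblast-like and in osteopontin osteolineage-like cells 6 entered and 0 were 2-fold apart. All genes gave 8.17% of 3232 in the first class (2.04% higher, 6.13% lower) and 5.18% of 3994 in the second (2.5% higher, 2.68% lower). In pooled osteolineage-like cells 2 of 6 (Runx2 and Vdr) were at least 2-fold higher with age. Here 15.2% of 3805 genes were apart, 10.7% higher and 4.47% lower. The median of all genes in that pooled class was itself 0.22, and on that scale the Vdr ratio was 1.95.

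The genes were detected together in more of the bone-forming and osteo-primed cells than of the CAR-like cells. At 2000 UMIs per cell, 3 or more of the 7 genes were found in 68.0% of adult and 36.6% of old osteo-primed cells, in 48.1% and 60% of osteoblast-like cells, in 66.2% and 70.7% of osteopontin osteolineage-like cells, and in 14.1% and 4.22% of CAR-like cells. The CAR-like shares were near those of megakaryocyte-like cells, 11.6% and 2.79%. No cell of these classes had all 7. Among old osteo-primed cells, 57.4% of those with a Vdr UMI and 46.8% of those without also had an Alpl UMI. The adult osteo-primed cells did not show this, at 81.8% and 85.7%. In CAR-like cells the shares were 15.7% and 16.6% (adult) and 6.86% and 4.48% (old). Osteoblast-like cells gave 67.8% and 66.1% (adult) and 70.4% and 45.8% (old, with 27 Vdr-positive cells). Osteopontin osteolineage-like cells gave 69.2% and 56.7% (adult) and 58.5% and 64.7% (old). The direction thus differed between classes and libraries.

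Across 20 class-by-library and cluster-by-library groups of at least 100 cells, Sp7 and Pth1r had the most similar patterns of any pair of the genes (Pearson r = 0.93 of log2 CPM with 10 added). These groups share libraries and depths, so the correlations are descriptions. Among the 6605 genes compared, those most like Sp7 after Pth1r were Sgms2, a sphingomyelin synthase (0.93), and Ccn4, a secreted matricellular protein (0.92). Those most like Pth1r after Sp7 were Clec11a, a growth factor that promotes bone formation (0.92), and Gpc1, a glypican (0.92). Alpl was most like Rab27b, a GTPase of vesicle secretion (0.89), followed by Sp7 and Ccn4 (0.88 each). Dlx5 was most like the homeobox genes Shox2 (0.88) and Dlx6, its genomic neighbour (0.88), and Cd63 (0.87). Runx2 was most like Naaladl2 (0.98), Fign (0.97) and Srgap3 (0.96). The genes nearest to Vdr were less similar to it, with Snx7 (0.84), 8030451A03Rik (0.82) and the ceramide synthase Cers6 (0.81). Among the genes described here, the r of Vdr ran from 0.36 with Pth1r to 0.64 with Runx2. That of Runx2 with Alpl was lower, at 0.295. Msx2 was under 50 CPM in all groups and was not compared.

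No other gene of the vitamin D system that could be compared lay 2-fold apart in CAR-like or in pooled osteolineage-like cells. Of the 15 listed, 5 entered in CAR-like cells and 0 were 2-fold apart in either direction (4.37% of all genes were), with a median log2 ratio of 0.05 against 0.01 over all genes. Slc8a1 and Atp2b1, which export calcium, were at 233.2 and 284.0 CPM and at 322.9 and 375.6 CPM. Pdia3, a disulphide isomerase also described as a membrane vitamin D binding protein, was at 376.5 and 335.7 CPM, and Med1, a coactivator subunit, at 59.9 and 62.1 CPM. The partner receptors were under the minimum, with Rxra at 20.6 and 23.6 CPM and Rxrb at 14.8 and 13.7 CPM. In pooled osteolineage-like cells 5 entered and 0 were 2-fold apart, with a median of 0.32. There Slc8a1 was at 69.7 and 133.0 CPM, Ncoa1, a nuclear receptor coactivator, at 96.6 and 128.5 CPM, Atp2b1 at 350.7 and 279.0 CPM, and Pdia3 at 336.0 and 420.7 CPM. Slc8a1 went the other way within osteoblast-like cells (65.5 and 33.5 CPM, -0.97) and was at 134.9 and 152.2 CPM (0.17) in osteopontin osteolineage-like cells. In osteoblast-like cells 1 of the 5 compared was at least 2-fold apart (8.17% of all genes were), the Wnt co-receptor gene Lrp5, at 62.7 and 142.1 CPM (1.18), a gene named after its value was seen. Cyp24a1, the classical target, had 0 UMIs in every one of the 4 classes in both libraries, including the 708 old osteopontin osteolineage-like cells with the highest Vdr level of the 4 classes.

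Genes of parathyroid hormone and cyclic AMP signalling were lower in old CAR-like cells more often than higher. Of 27 listed, 16 entered, 5 were at least 2-fold lower and 1 higher (1.75% and 2.61% of all genes), with a median log2 ratio of -0.31. In osteo-primed CAR-like cells 12 entered, 0 were lower and 1 was higher (3.41% and 4.84% of all genes), with a median of 0.13. In CAR-like cells Tnfsf11, which encodes RANKL, was at 884.1 and 186.9 CPM (-2.24, -2.27 to -2.22). The nuclear receptors Nr4a3, at 76.0 and 20.6 CPM (-1.89), and Nr4a1, at 128.1 and 41.7 CPM (-1.62), were also lower. So was the signalling inhibitor Rgs2, at 134.2 and 43.2 CPM (-1.64). These 3 are early genes that respond to cyclic AMP among other signals. Fos, named after its value was seen, was at 2582 and 1084 CPM (-1.25). Any part of the hormone in these values was not tested. The background came to 30.8% and 26.3% of the CAR-like count of Tnfsf11, and to 36.5% and 48.2% of that of Nr4a3. For Nr4a1 it was 32.2% and 27.7%, for Rgs2 32.1% and 17.8%, and for Fos 33.9% and 28.6%. In pooled osteolineage-like cells 14 entered, 3 were at least 2-fold lower and 2 higher (4.47% and 10.7% of all genes), with a median of -0.18. Rgs2 was at 50.8 and 10.6 CPM (-2.26) and Nr4a2 at 86.3 and 26.7 CPM (-1.69), while the cyclic AMP phosphodiesterases Pde7b, at 269.3 and 824.2 CPM (1.61), and Pde4d, at 164.0 and 378.2 CPM (1.21), were higher. Within the osteoblast-like and osteopontin osteolineage-like classes the ratio of Pde4d was 1.11 and 1.75, and that of Pde7b 0.70 and 0.45. In osteoblast-like cells the ratio of Rgs2 was -1.23 and that of Nr4a2 -0.64. Neither gene reached the minimum in osteopontin osteolineage-like cells. The background came to 43.0% and 45.4% of the pooled count of Rgs2, and to 5.53% and 3.23% of that of Nr4a2.

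The list of osteoblast transcription and mineralisation held 26 genes, of which 25 were in the files under the listed symbol. In CAR-like cells 12 entered, 4 were at least 2-fold lower and 1 higher in the old library (1.75% and 2.61% of all genes), with a median of -0.05. The lower ones named by the rule, Bglap (175.4 and 6.38 CPM), Bglap2 (80.0 and 3.73 CPM) and the collagen gene Col1a1 (707.4 and 90.7 CPM), are major osteoblast products. Megakaryocyte-like cells held 156.5% and 430.9% of the CAR-like Bglap count and 160.2% and 231.9% of that of Col1a1, so these are background values. Phex, a peptidase gene of osteocytes that regulates phosphate, was at 89.1 and 426.1 CPM (2.26, 2.22 to 2.29), with a background of 54.7% and 29.1%. In pooled osteolineage-like cells 19 entered, 7 were higher and 6 lower (10.7% and 4.47% of all genes), with a median of 0.08. Within each of the 2 classes pooled there, 2 were higher and 0 lower. Of all genes, 2.04% were higher and 6.13% lower in osteoblast-like cells. In osteopontin osteolineage-like cells 2.5% were higher and 2.68% lower. The osteopontin gene Spp1, a marker used to name one of the pooled classes, was at 3797 and 42170 CPM (3.47). Enpp1, which makes pyrophosphate, was at 28.8 and 188.1 CPM (2.71), the pyrophosphate exporter gene Ank at 66.4 and 309.3 CPM (2.22), and Col1a1, a marker of the other class, at 70970 and 15270 CPM (-2.22). Within the classes these ratios were smaller. Ank was at 0.23 in osteoblast-like and 0.24 in osteopontin osteolineage-like cells, Enpp1 at 0.55 in the latter, Spp1 at -0.12 and 0.55, and Col1a1 at 0.08 and -0.32. Alpl, whose enzyme removes pyrophosphate, was at 669.9 and 677.3 CPM in the pooled cells.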

How the data were processed

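The authors deposited, for each library, raw UMI counts per gene and cell barcode, made with Cell Ranger 7.0.1 per the file headers and on GRCm39 per the submitters' processing notes. The sources used here do not give the annotation release or barcode filter. Barcodes with under 500 genes or over 10% mitochondrial UMIs were left out (3232 adult, 3323 old). The 2 libraries were clustered as 1 set, with no integration step (10000 counts per cell, 2000 variable genes without the 7 genes, 50 principal components, 15 neighbours, shared-neighbour Leiden clustering at resolution 1). Computation used Python 3.11.15, scikit-learn 1.9.0, leidenalg 0.10.2 and scipy 1.17.1.

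Clusters took a name from 21 marker lists at a score of at least 0.45 with at least 3 markers in over 10% of cells. Scores within 0.1 were decided by the 10 leading genes. These cutoffs were chosen with the clusters in view. No doublet caller was run. The deepest 10% of cells were left out as an alternative. UMIs were summed per class and library and scaled to CPM (per 1000000), with exact Poisson, binomial and conditional binomial intervals. Scripts were tested on simulated data. PCR and pooling error is not covered by these intervals.

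The genes and lists were chosen with earlier results of these data known. Named genes were the 7, the 3 genes most correlated with each, and up to 4 per list with the largest ratio in CAR-like and in pooled osteolineage-like cells. Gene spans came from GENCODE M21, matched by Ensembl identifier. Alternatives were other clustering, cell filters, weights, scaling, thinning and background subtraction. The last took the mean count of a megakaryocyte-like cell, per gene and in total, from each cell.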

Additional observations from a re-analysis of the deposited data

Results flagged for a closer look

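Vdr is listed because its ratio of old to adult level had opposite signs in different cell classes. The log2 ratio was 2.16 in pooled osteolineage-like cells, -2.11 in CAR-like cells and -1.04 in osteo-primed CAR-like cells. The 2 classes within the pooled one gave 0.72 (osteoblast-like, 77 old cells) and 0.85 (osteopontin osteolineage-like). With 1 library per age the difference between classes was not tested.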

How the results depend on the processing

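The sign of the Vdr ratio was the same in 16 of 16 alternatives in CAR-like cells and in 14 of 14 in pooled osteolineage-like cells. In CAR-like cells the log2 ratio of -2.11 became -1.59 at Leiden resolution 0.5, where 933 old cells were left in the class, -2.18 with each library clustered on its own and also with each cell weighted alike, -2.58 with the 7 genes among the variable genes, -2.51 with at least 1000 genes per cell, -2.47 with at most 5% mitochondrial UMIs, -2.26 with background RNA subtracted, and -1.92 with osteo-primed cells counted as CAR-like. It was -2.05 without clusters under 4000 UMIs, a setting chosen after seeing the data. In pooled osteolineage-like cells the ratio of 2.16 became 2.36 with each library clustered on its own, 2.24 with at most 5% mitochondrial UMIs, 2.02 with each cell thinned, 2.86 with background RNA subtracted, 1.95 on the median of all genes as scale, and 0.78 as the mean of the 2 classes, also chosen after seeing the data. The number of the 7 genes at least 2-fold apart in CAR-like cells was 1 in place of 2 with background RNA subtracted.

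At resolution 0.5 the Alpl ratio in CAR-like cells was 0.31, and the Vdr ratio in osteo-primed CAR-like cells was 0.13 at resolution 0.5 and 0.19 at resolution 2, where the old class held 26 and 21 cells. Sp7 and Pth1r in osteo-primed CAR-like cells changed sign at both resolutions, and Runx2 there kept its sign in 5 of 13 alternatives. The old osteo-primed class thus rests on 1 cluster's name. Runx2 and Pth1r in CAR-like cells also changed sign at resolution 0.5, to -1.10 and 0.27. Sp7 in CAR-like cells kept its sign in 10 of 16 alternatives. In the osteoblast-like class the Vdr ratio ranged from 0.51 to 1.24 over 13 alternatives, and in the osteopontin osteolineage-like class from 0.50 to 1.14 over 12. With each library clustered on its own, no adult osteopontin osteolineage-like class was named. No paired analysis was possible because there is 1 library per age group. Depth limited Msx2 in all classes and every value of the 77 old osteoblast-like cells.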

Other observations

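A few old cells fell into clusters of mostly adult cells, and their Vdr level was near the adult one in some of these clusters. In the CAR-like cluster led by Kcne4 and Clstn2, 11 old cells held 293.0 CPM (181.4 to 447.9, from 21 UMIs) beside 291.3 CPM in 4631 adult cells. In the low-depth cluster led by Fam227b and Egfros, 21 old cells held 284.9 CPM (166.0 to 456.2) beside 342.2 CPM. In the osteo-primed cluster led by Hs3st5 and Wif1, 21 old cells held 191.0 CPM (123.6 to 282.0) beside 185.1 CPM. The cluster led by Bmp4 and Lpl differed, since 32 old cells held 51.3 CPM (25.6 to 91.7) beside 168.9 CPM. These clusters were singled out after their values were seen. Adult cells in some mostly old clusters, in contrast, held more Vdr than the old cells beside them. These clusters too were singled out after their values were seen. In the CAR-like cluster led by Tenm2 and Grm7, 14 adult cells held 110.0 CPM (7 UMIs) beside 37.6 CPM (log2 ratio -1.55, -2.59 to -0.23). In the osteo-primed cluster led by Kcnk2 and Col8a1, 8 adult cells held 164.5 CPM (16 UMIs) beside 89.1 CPM (-0.89, -1.59 to -0.07). Other adult cells held less, from 1 UMI each. They lay in the CAR-like cluster led by Hspa1b and Hsph1 (50.8 beside 59.3 CPM) and the unnamed cluster led by Grm7 and Tenm2 (46.2 beside 68.5 CPM). The 18 adult cells of the CAR-like cluster led by Cxcl13 and Serpina12 held 0 UMIs beside 35.2 CPM. Of the 64 old cells in the 3 mostly adult CAR-like clusters, 2 had a barcode that the adult library also held.

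Osteocyte-like cells, with markers of bone-embedded cells such as Mepe and Dmp1, numbered 57 adult and 79 old. Vdr was at 71.0 CPM (39 UMIs) in adult and 210.1 CPM (87 UMIs) in old cells, and Alpl at 309.4 (170 UMIs) and 12.1 CPM (5 UMIs). These libraries held different cells, because at resolution 2 the class split into 20 adult and all 79 old cells led by Mepe and 37 adult cells led by Col10a1, a gene of hypertrophic cartilage. The 20 adult cells held 181.1 CPM of Vdr (90.4 to 324.0, 11 UMIs), an interval that overlaps that of the old cells (168.2 to 259.1), and 148.2 CPM of Alpl (67.8 to 281.3, 9 UMIs). The 37 other adult cells held 57.3 CPM of Vdr and 329.4 CPM of Alpl.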
